A study of Homo sapiens with 95 samples.

Results

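Expression of 9 target genes of the transcription factor p53 was examined in AALE, an immortalized line of human bronchial epithelial cells. The genes, CDKN1A, MDM2, GDF15, BBC3, BAX, SESN1, RRM2B, FDXR and TP53I3, were chosen by name, and all 9 were found among the 23895 gene symbols listed in every count file. Transcripts were counted in each well by 3′DGE, a method that reads the 3′ ends of mRNAs and counts molecules by their unique molecular identifiers (UMIs). Of the 95 wells, 82 carried a replicate number of 1 digit and entered the comparisons. Levels are given in CPM, counts per 1000000 UMIs of the well, with no scaling to transcript length.

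All wells held AALE cells, and no parental cells without a construct were among the groups. In 4 populations a gene was overexpressed, NFE2L2 (population NRF2), PIK3CA, NRG1 or FGFR1, and their control (HCRED) carried an empty vector with the reporter HcRed. CRISPR populations, labelled as knockouts, were targeted at FAT1 or CDKN2A, and their control (GFP) had received the Cas9 and EGFP plasmid with no guide. Chemicals were NNK, a tobacco nitrosamine (490 µM), BaP, the polycyclic hydrocarbon benzo[a]pyrene (173 µM), and CSC, a condensate of cigarette smoke (24 µg/ml), with DMSO as the vehicle. Each chemical was given at a single concentration to plated cells near confluency. Exposure time, and whether a population was 1 clone, are not given in the sources used here, and the study describes the numbered wells as biological replicates. The labels do not say whether they were separate cultures.

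p53 is a transcription factor that is stabilised after DNA damage and other stress, and it activates genes that halt the cell cycle, repair DNA, limit oxidation or start apoptosis. Its level is held down by MDM2, a ubiquitin ligase that is itself a p53 target, so that the pathway limits its own activity. AALE cells were made with the SV40 early region, whose large T antigen binds p53, and the pathway in this line is therefore not that of primary bronchial epithelium.

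The upstream sequences of the genes are shown for the p53 and aryl hydrocarbon receptor (AHR) motifs they hold, since BaP and smoke condensate also act through AHR. RefSeq windows on GRCh38.p14 were found for 8 of the 9 genes, 14 windows in all, and the 250 bases before each start were searched. A p53 site was taken as 2 adjacent p53 consensus decamers with no spacer, 20 bases in all, with at most 3 mismatches and with the core C and G of each decamer intact. It was present in 0.914% of all 35116 windows. Among the 9 genes it was found in MDM2, SESN1 and FDXR. The MDM2 match lay 94 to 75 bases before the third of 4 starts and had 2 mismatches. In the windows below, read 5′ to 3′ on the strand of the gene, capitals mark the p53 site in MDM2 (chr12:68808903-68808982, plus strand) and SESN1 (chr6:109008989-109009068, minus strand), and the AHR core on its opposite strand in CDKN1A (chr6:36678499-36678578, plus strand).
MDM2: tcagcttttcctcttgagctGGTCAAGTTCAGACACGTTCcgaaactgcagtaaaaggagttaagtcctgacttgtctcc
SESN1: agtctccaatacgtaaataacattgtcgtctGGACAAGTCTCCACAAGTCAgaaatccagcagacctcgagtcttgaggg
CDKN1A: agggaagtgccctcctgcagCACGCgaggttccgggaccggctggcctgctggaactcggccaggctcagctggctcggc
The FDXR match was GGGCAGGAGCGGGCTTGCCC, 21 to 2 bases before the start, with 3 mismatches. The SESN1 and FDXR matches each held an exact decamer, which 5.57% of windows did. The AHR core GCGTG, on either strand, was found in 32.2% of windows and in CDKN1A and SESN1 among the 9 genes. No p53 site was found in the windows of CDKN1A, GDF15, TP53I3, BAX or BBC3, which says only that these letters are not within 250 bases of those starts.

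Libraries of the 82 wells averaged 1283217 UMI counts (SD 237570, n = 82) and ranged from 692446 to 1895735. DMSO libraries were larger on average (1427513, SD 172008, n = 24) than NNK libraries (1180450, SD 256396, n = 22). Each plate row held wells of a single chemical, so that chemical and plate row cannot be told apart. Each population kept the same place on the plate under every chemical, and each set of columns was shared by a pair of populations in different rows, so that population and place on the plate cannot be told apart. Replicate 2 of NRG1 under NNK stood apart from the other wells of its group, with a chi-square per degree of freedom of 11.3 and 11.8 against them, where the 74 other pairs of replicates ran from 1.13 to 2.89. All 8 basal epithelial markers were detected in all 82 wells, with a summed level from 470 to 1110 CPM. Of 9 markers of other cell types found, VWF and FOXJ1 were at 0 in all 82 wells and PTPRC, COL3A1 and SCGB1A1 were at 0 in at least 78 of them, whereas CD68 was detected in every well. The other markers were detected in many wells: DCN was at 0 in 8 wells, PECAM1 in 17 and COL1A1 in 32. Their highest levels were 15.8, 5.42 and 2.32 CPM. Overexpressed genes were higher than in every HCRED well under DMSO (NRG1 reached 101 to 115 CPM against 0 to 0.774). FAT1 (0 to 3.4 CPM) and CDKN2A (19 to 23.8 CPM) were lower than in every GFP well in the populations targeted at them. Lower CDKN2A was not particular to the cells targeted at it. Under DMSO the gene was also called lower in FAT1 than in GFP, and higher in GFP than in HCRED.

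Levels of the p53 targets fell into 2 ranges. MDM2, the ubiquitin ligase (chr12:69201957-69239324 on GRCh37, plus strand), was counted in every well at 18.8 to 67 CPM, with a median of 35.9. TP53I3, a quinone oxidoreductase induced by p53 (chr2:24300303-24308731, minus strand), was counted at 8.39 to 47.4 CPM, with a median of 25.8. CDKN1A, which encodes the cell cycle inhibitor p21 (chr6:36644237-36655114, plus strand), was counted at 7.04 to 36.8 CPM, with a median of 16.7. RRM2B, the p53-inducible subunit of ribonucleotide reductase that supplies nucleotides for DNA repair, had a median of 13.9 CPM and was also counted in every well. These 4 genes held 1557 to 3965 UMIs each over the 82 wells.

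The other 5 genes were close to the limit of detection. SESN1, a stress protein that restrains mTORC1 (chr6:109305512-109416049, minus strand), had a median of 2.64 CPM and was at 0 in 6 wells. FDXR, the mitochondrial ferredoxin reductase (chr17:72858619-72869156, minus strand), had a median of 1.77 CPM and was at 0 in 7 wells. GDF15, a secreted stress cytokine of the TGF-β family (chr19:18485541-18499986, plus strand), had a median of 1.4 CPM, was at 0 in 10 wells and held 180 UMIs in all. The pro-apoptotic genes were lower still. BAX, the pore-forming member of the BCL2 family (chr19:49458072-49465055, plus strand), held 54 UMIs and was at 0 in 41 wells. BBC3, which encodes PUMA (chr19:47724079-47736023, minus strand), held 13 UMIs and was at 0 in 70 wells. Neither passed the filter of a mean count above 1, so that 7 of the 9 genes were tested. In NRF2 or GFP against HCRED 6 were tested, without GDF15.

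**Figure D1:**
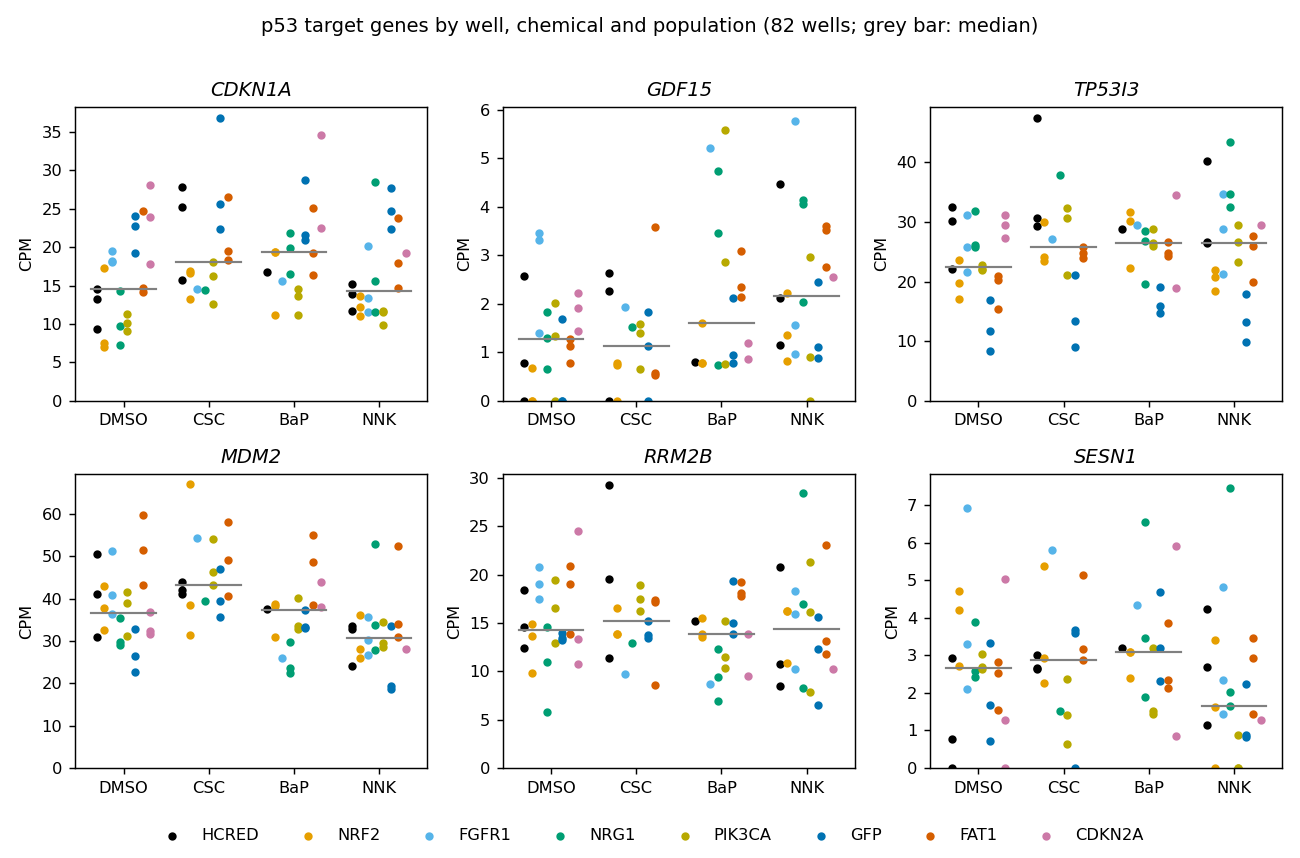
Levels of 6 p53 target genes in each of the 82 wells, in CPM, by chemical on the x axis and by population in colour, with the median as a grey bar. CDKN1A medians were 14.6 CPM under DMSO, 18.1 under CSC and 19.3 under BaP, and GDF15 medians were 1.28 under DMSO and 2.17 under NNK, with wide overlap between chemicals in every panel.

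The first comparison asked whether smoke condensate moved the pathway. Across the 5 populations with 3 wells under both CSC and DMSO, CDKN1A and TP53I3 rose, and the other 5 genes tested did not pass the threshold. The genes called were therefore 2 of 7, against 5.81% of the 11371 genes tested (2.95% higher and 2.86% lower). The median log2 fold change of the 7 genes was 0.19, beside -0.001 over all genes tested.

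CDKN1A was counted at 12.6, 18.3 and 36.8 CPM (lowest, median and highest of 15 wells) under CSC and at 7.04, 14.2 and 24.8 CPM in the 15 DMSO wells. The ranges overlapped, with GFP and FAT1 wells highest under DMSO, and the mean was higher under CSC in 5 of 5 populations. In HCRED every CSC well (25.3, 27.8 and 15.8 CPM) lay above every DMSO well (14.6, 13.2 and 9.29 CPM), as was also the case in PIK3CA. With population as a covariate, the log2 fold change was 0.51 (SE 0.12, limma adjusted p = 0.0025). In bulk wells a change in the number of expressing cells and a change in RNA per cell cannot be told apart. The call was kept in 17 of 18 alternatives and was lost without replicate 2 of every group (adjusted p = 0.121).

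TP53I3 was counted at 8.98, 24.8 and 47.4 CPM in the CSC wells and at 8.39, 21 and 32.5 CPM in the DMSO wells. Its mean was also higher in 5 of 5 populations, and FAT1 was the population in which every CSC well (25.8, 24 and 24.8 CPM) lay above every DMSO well (20.3, 21 and 15.4 CPM). The log2 fold change was 0.35 (SE 0.10, limma adjusted p = 0.0222), and the call was kept in 11 of 18 alternatives. It was lost without replicate 2 (0.18, adjusted p = 0.583), without replicate 3 (adjusted p = 0.0704), in a single fit over all groups, and on leaving out FAT1, HCRED, NRF2 or PIK3CA, with adjusted p-values up to 0.104 in these population fits.

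MDM2, the feedback inhibitor, was counted at 31.5, 43.3 and 67 CPM under CSC and at 22.7, 39.1 and 59.7 CPM under DMSO. Its log2 fold change of 0.19 (SE 0.09) had an adjusted p of 0.213, and the mean was higher in 4 of 5 populations. The remaining values were 0.46 (SE 0.37) for GDF15, 0.15 (SE 0.28) for SESN1, 0.03 (SE 0.12) for RRM2B and -0.29 (SE 0.31) for FDXR. The 95% intervals were from -0.21 to 0.27 for RRM2B and from -0.28 to 1.21 for GDF15, so that the width differed several-fold between well counted and sparsely counted genes.

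**Figure D2:**
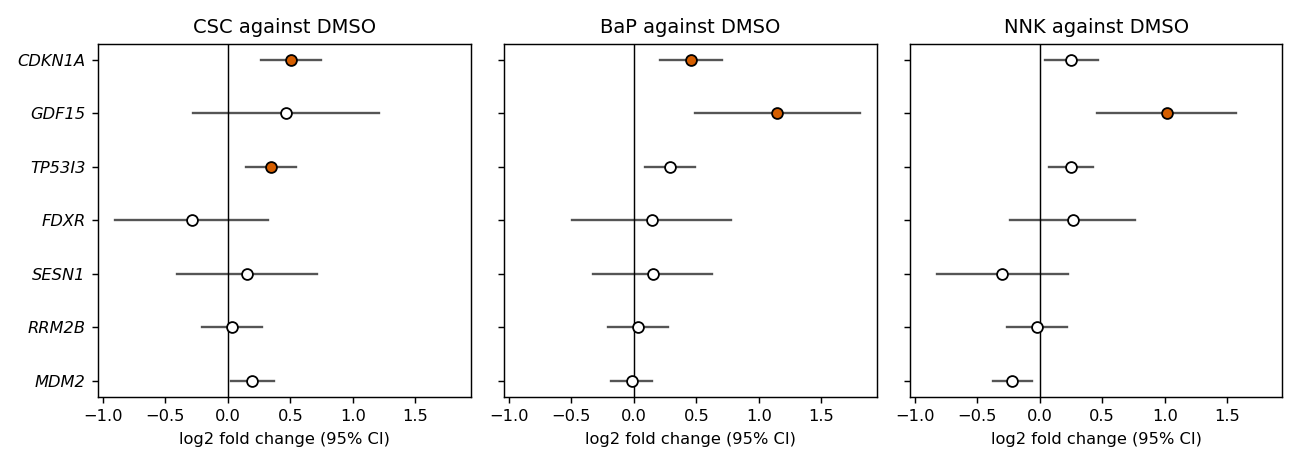
Log2 fold change of the 7 tested p53 targets under each chemical against DMSO, with 95% confidence intervals as lines and filled points where the limma adjusted p was under 0.05. CDKN1A and TP53I3 are filled under CSC, CDKN1A and GDF15 under BaP, and GDF15 under NNK, and the intervals of GDF15, FDXR and SESN1 are the widest.

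Under BaP, a polycyclic hydrocarbon whose metabolites form DNA adducts, CDKN1A and GDF15 rose. The DMSO wells of FAT1, GFP, NRF2 and PIK3CA served in this comparison and in that of CSC. All DMSO wells of the BaP comparison also served for NNK, so that calls shared by chemicals are not independent of each other. These were 2 of 7 genes, against 9.16% of 11306 genes called (5.04% higher and 4.12% lower). The median of the 7 log2 fold changes was 0.15, beside 0.009 over all genes.

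CDKN1A was counted at 11.2, 19.3 and 28.7 CPM in the 15 BaP wells of the 5 populations and at 7.04, 14.2 and 24.8 CPM in their DMSO wells. In NRG1 the BaP wells (21.8, 16.4 and 19.9 CPM) all lay above the DMSO wells (9.70, 14.3 and 7.31 CPM). The mean was higher in 5 of 5 populations, with a log2 fold change of 0.46 (SE 0.12, limma adjusted p = 0.009). The call was lost without replicate 2 (adjusted p = 0.0647), without replicate 3 (0.095), and on leaving out NRF2 (0.0507) or NRG1 (0.114).

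GDF15 was counted at 0.728, 2.13 and 5.59 CPM in the BaP wells and at 0, 0.772 and 2.01 CPM in the DMSO wells, of which 5 were at 0. Every BaP well lay above every DMSO well in FAT1 (2.35, 3.09 and 2.14 CPM against 1.27, 1.13 and 0.772 CPM) and in NRF2, where 2 of 3 DMSO wells were at 0. The log2 fold change was 1.15 (SE 0.33, limma adjusted p = 0.0153), with a higher mean in 5 of 5 populations. The call rested on few molecules: it was kept in 10 of the 16 alternatives that gave an adjusted p, and it was lost without replicate 3 (0.75, adjusted p = 0.336), without replicate 2 (0.112), and on leaving out FAT1 (0.0653), GFP (0.0505), NRF2 (0.0599) or PIK3CA (0.0501). DESeq2 gave it no adjusted p under BaP or NNK.

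TP53I3 lay just beyond the threshold under BaP, at 0.29 (SE 0.10, adjusted p = 0.0543), and was counted at 14.7, 25.9 and 31.7 CPM against 8.39, 21 and 31.8 CPM. Its mean was higher in 4 of 5 populations, and 7 of 18 alternatives called it, edgeR's quasi-likelihood test (adjusted p = 0.049) and the fit without NRG1 (0.43, adjusted p = 0.00401) among them. MDM2 had a log2 fold change of -0.02 (SE 0.08), with an interval from -0.18 to 0.14. RRM2B, SESN1 and FDXR had values of 0.04 (SE 0.12), 0.15 (SE 0.24) and 0.14 (SE 0.32).

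BBC3 was at 0 in all 19 BaP wells of the series, and a count of 0 in their 23062103 UMIs allows up to 0.13 CPM. It held 5 UMIs in the 24 DMSO wells, 4 in the 17 CSC wells and 4 in the 22 NNK wells. These counts did not allow a difference to be seen at this depth. BAX held 14 UMIs under BaP, 9 under CSC, 15 under NNK and 16 under DMSO, or 0.41 to 0.607 CPM when pooled by chemical. Limits and pooled values of this kind cover counting error only.

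Under NNK, which was compared over 7 populations and 42 wells, GDF15 rose and no other of the tested genes passed the threshold, 1 of 7 against 7.22% of 11349 genes (3.07% higher and 4.15% lower). The median of the 7 log2 fold changes was 0.25, beside -0.009 over all genes. GDF15 was counted at 0, 2.12 and 5.78 CPM in 21 NNK wells and at 0, 1.13 and 3.46 CPM in 21 DMSO wells, with 1 and 6 wells at 0. Its mean was higher in 7 of 7 populations, and in FAT1, NRF2 and NRG1 all NNK wells lay above all DMSO wells. The log2 fold change was 1.01 (SE 0.28, limma adjusted p = 0.0121). It was lost without replicate 2 (0.82, adjusted p = 0.107), without replicate 3 (0.176) and on leaving out FAT1 (0.0884) or NRF2 (0.0567).

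The 3 well counted genes with the next smallest p-values did not pass the threshold under NNK. MDM2 was counted at 18.8, 31 and 52.9 CPM against 22.7, 37.8 and 59.7 CPM, with a log2 value of -0.22 (SE 0.08, adjusted p = 0.0755) and a lower mean in 6 of 7 populations. TP53I3 had a higher mean in 7 of 7 populations, and its log2 value was 0.25 (SE 0.09, adjusted p = 0.0678). CDKN1A had a value of 0.25 (SE 0.11, adjusted p = 0.153), with 9.85, 13.9 and 28.5 CPM against 7.04, 14.3 and 24.8 CPM.

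The count changed without replicate 2 of NRG1 under NNK, the well that stood apart. Without it 3 of 7 genes were called, against 19.9% of 11279 genes. TP53I3 was then higher (0.27, adjusted p = 0.0147), MDM2 lower (-0.24, adjusted p = 0.0131) and GDF15 higher. TP53I3 was called in 8 and MDM2 in 6 of 21 alternatives in all, some of which kept that well, such as median-ratio size factors for TP53I3 (adjusted p = 0.0348) and library totals for MDM2 (adjusted p = 0.0347). That well held the highest MDM2 (52.9 CPM), CDKN1A (28.5 CPM) and TP53I3 (43.4 CPM) levels of the NNK wells.

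The chemicals were also compared directly, over the populations that had 3 wells under both. CSC against BaP called 0 of 7 genes (limma, 4.58% of all genes), with 1 at an unadjusted p under 0.05, GDF15 (-0.91, SE 0.36, adjusted p = 0.163). BaP against NNK likewise called 0 of 7 (0.996% of all genes), with 1 at an unadjusted p under 0.05, SESN1 (0.73, SE 0.29, adjusted p = 0.356). edgeR and DESeq2 also called 0 of these genes in both pairs. CSC against NNK called MDM2, 1 of 7 against 12.3% of all genes (4.92% higher), which averaged 45.2 CPM under CSC and 30.8 CPM under NNK in the same 5 populations. The log2 difference was 0.45 (SE 0.09, limma adjusted p = 0.000343), and it was called in all 8 alternatives run for that pair. GDF15 was lower under CSC than under NNK by a log2 difference that missed the threshold (-0.89, SE 0.34, adjusted p = 0.072).

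Whether the responses differed between populations was tested for 7 genes and 3 chemicals. Of the 21 interaction tests 0 passed the threshold (limma moderated F, and edgeR likewise), and 1 had an unadjusted p under 0.05, SESN1 under NNK (0.0235, adjusted p = 0.765). The background was equally low, with 0.106% of genes called for CSC, 0.106% for BaP and 0.0176% for NNK. With 3 wells a side, no change of these genes passed the threshold within a single population. Of 119 limma tests 0 passed and 17 had an unadjusted p under 0.05, which does not show that changes were absent. The share of all genes called in a population was 0.712%, 0.528%, 0.783%, 1.17% and 1.18% under CSC (FAT1, GFP, HCRED, NRF2 and PIK3CA). It was 1.95%, 1.19%, 1.52%, 1.06% and 1.05% under BaP (FAT1, GFP, NRF2, NRG1 and PIK3CA). Under NNK it was lower, at 0.634%, 0.211%, 0.132%, 0.132%, 0.159%, 0.141% and 0.150% (FAT1, FGFR1, GFP, HCRED, NRF2, NRG1 and PIK3CA).

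The largest of the well counted values within a population were CDKN1A under BaP in NRG1 (0.95, SE 0.28, limma adjusted p = 0.084) and under CSC in HCRED (0.90, SE 0.28, adjusted p = 0.143). In GFP and FAT1, whose CDKN1A was higher under DMSO than in the populations just named, the values under CSC were 0.33 and 0.25, and under BaP 0.14 and 0.24. That ordering was not called as a difference between populations, with interaction adjusted p-values for CDKN1A of 0.928 under CSC and 0.818 under BaP. MDM2 under CSC ran from -0.10 in FAT1 to 0.56 in GFP, the populations with its highest and lowest DMSO levels (interaction adjusted p = 0.869).

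**Figure D3:**
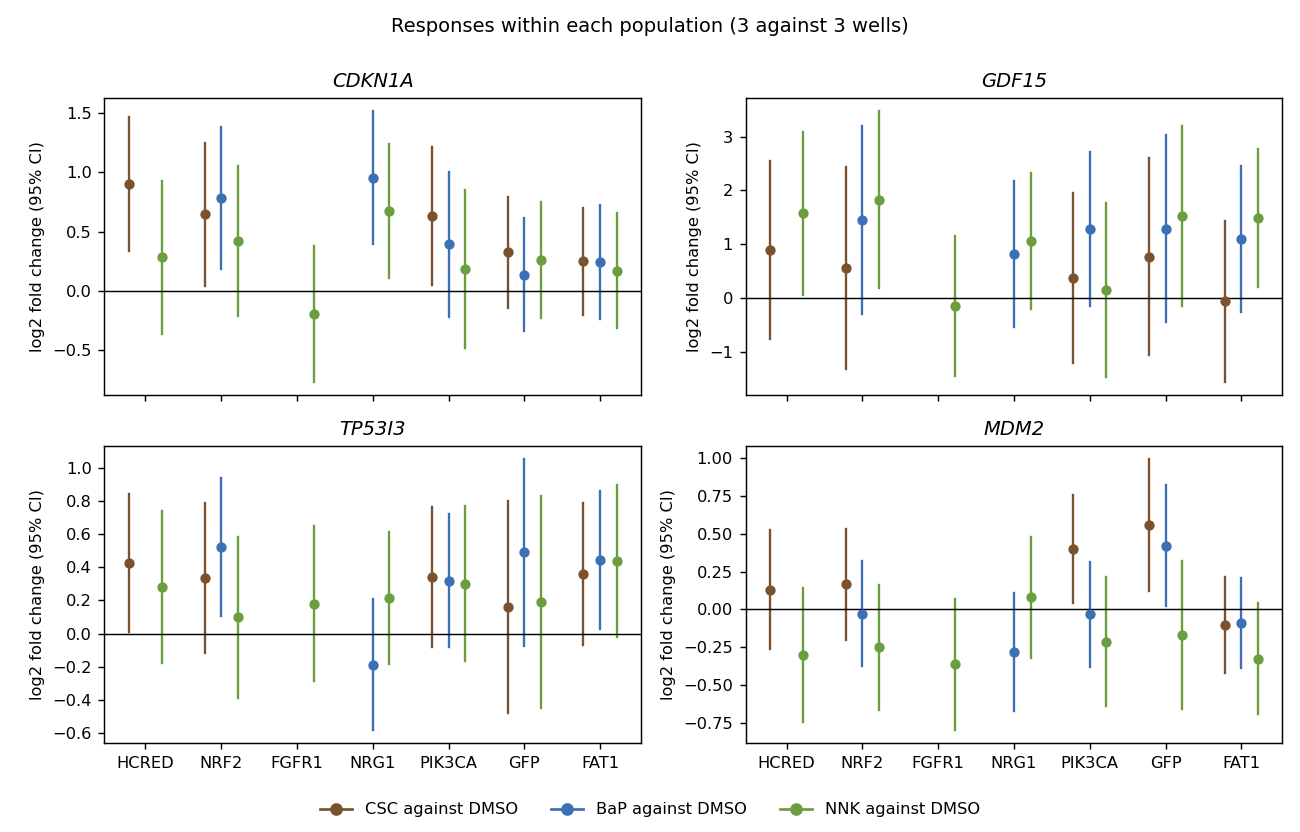
Log2 fold change against DMSO of 4 p53 targets within each population with 3 wells on both sides, with 95% confidence intervals, coloured by chemical. CDKN1A under BaP in NRG1 (0.95) and under CSC in HCRED (0.90) stand highest in their panel, and most intervals include 0.

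Populations were next compared under DMSO, each against its own control. No member was called by limma in NRF2 (4.91% of all genes), FGFR1 (0.914%), NRG1 (3.08%) or PIK3CA (5.40%) against HCRED, with 1, 2, 0 and 0 of them at an unadjusted p under 0.05. edgeR and DESeq2 likewise called 0 in each. Those with an unadjusted limma p under 0.05 were SESN1 in NRF2 (1.81, SE 0.76, adjusted p = 0.198) and SESN1 and CDKN1A in FGFR1 (1.70 and 0.59, adjusted p = 0.470 and 0.526). SESN1 was also higher, though not called, in PIK3CA (1.39, adjusted p = 0.368) and NRG1 (1.44, adjusted p = 0.409). The HCRED wells shared by these fits held SESN1 at 0, 2.94 and 0.774 CPM. When the wells of all shared chemicals were fitted together, TP53I3 was lower in NRF2 than in HCRED (-0.47, adjusted p = 0.00768, against 10.7% of genes called).

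In cells targeted at FAT1, an atypical cadherin, MDM2 was higher than in GFP, 1 of 7 genes against 14.1% of all genes (6.39% higher). The 3 FAT1 wells held 59.7, 51.5 and 43.2 CPM and the 3 GFP wells 32.7, 26.6 and 22.7 CPM, without overlap. The log2 difference was 0.99 (SE 0.18, limma adjusted p = 1.62e-05), and it was called in all 14 alternatives. With HCRED wells as the control, an alternative chosen after the values were seen, it was 0.50 (adjusted p = 0.0288, against 13.3% of genes called). When the wells of all shared chemicals were fitted together, TP53I3 (0.81) and FDXR (1.17) were called higher beside MDM2, 3 of 7 against 33.1% of all genes. FAT1 cells also had the highest mean MDM2 of the groups with 3 wells under CSC (49.3 CPM), BaP (47.4 CPM) and NNK (39.2 CPM).

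CDKN2A encodes p16 and, in another frame, ARF, which inhibits MDM2. In cells targeted at it TP53I3 was higher than in GFP, 1 of 7 genes against 17.9% of all genes (8.64% higher). The CDKN2A wells held 31.2, 29.5 and 27.3 CPM and the GFP wells 8.39, 11.6 and 16.9 CPM, a log2 difference of 1.15 (SE 0.27, limma adjusted p = 0.000572). Against HCRED, whose wells held 32.5, 22.1 and 30.2 CPM, the same CDKN2A wells differed by 0.02 (adjusted p = 0.972). That fit called CDKN1A instead (0.83, adjusted p = 0.0224, against 14.0% of genes), which against GFP had a value of -0.05.

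The controls themselves differed. GFP against HCRED, compared under DMSO, had lower TP53I3 (-1.12, SE 0.26, limma adjusted p = 0.00228) and higher CDKN1A (0.89, SE 0.26, adjusted p = 0.0158), 2 of 6 genes against 10.8% of all genes (5.94% higher and 4.86% lower). TP53I3 stayed past the threshold in all 13 alternatives. CDKN1A, at 19.3, 24.1 and 22.7 CPM in GFP and 14.6, 13.2 and 9.29 CPM in HCRED, was called in 10 of 13 and lost in DESeq2 (adjusted p = 0.104), without HCRED replicate 3 (0.105) and without GFP replicate 2 (0.052). MDM2 was lower in GFP by -0.50 (SE 0.20, adjusted p = 0.103), and this value passed the threshold without HCRED replicate 2 (-0.70, adjusted p = 0.0228).

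Across populations the order of the genes under DMSO was not shared. Mean TP53I3 ran from 12.3 CPM in GFP through 18.9 in FAT1, 20.1 in NRF2, 22.3 in PIK3CA, 26.2 in FGFR1, 27.9 in NRG1 and 28.3 in HCRED to 29.4 CPM in CDKN2A, with SDs from 0.478 to 5.49 CPM. The upper 4 of these overlapped in their wells, and GFP overlapped with FAT1. GFP also had the lowest mean TP53I3 of the groups with 3 wells under CSC (14.5 CPM), BaP (16.6 CPM) and NNK (13.6 CPM). Mean CDKN1A was instead highest in CDKN2A (23.3 CPM) and GFP (22 CPM) and lowest in PIK3CA (10.1 CPM), NRG1 (10.4 CPM) and NRF2 (10.6 CPM), which overlapped with each other and with HCRED (12.4 CPM). Mean MDM2 ran from 27.3 CPM in GFP to 51.5 CPM in FAT1.

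The sparsely counted genes and RRM2B were read in the same way. Mean RRM2B under DMSO ran from 10.5 CPM in NRG1 (11, 5.84 and 14.6 CPM) to 19.1 CPM in FGFR1 (20.8, 17.5 and 19.1 CPM), and wells of most other populations lay between. Mean GDF15 was highest in FGFR1 at 2.72 CPM (3.46, 1.4 and 3.31 CPM) and lowest in NRF2, where the 3 wells held 0, 0.68 and 0 CPM. Mean SESN1 ran from 1.24 CPM in HCRED (0, 2.94 and 0.774 CPM) to 4.11 CPM in FGFR1 (6.93, 2.1 and 3.31 CPM), and mean FDXR from 0.785 CPM in FGFR1 to 3.03 CPM in FAT1 (3.17, 2.83 and 3.09 CPM). FGFR1 was thus the highest population for 3 of these genes, but its wells overlapped those of HCRED for SESN1, FDXR, RRM2B and GDF15.

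**Figure D4:**
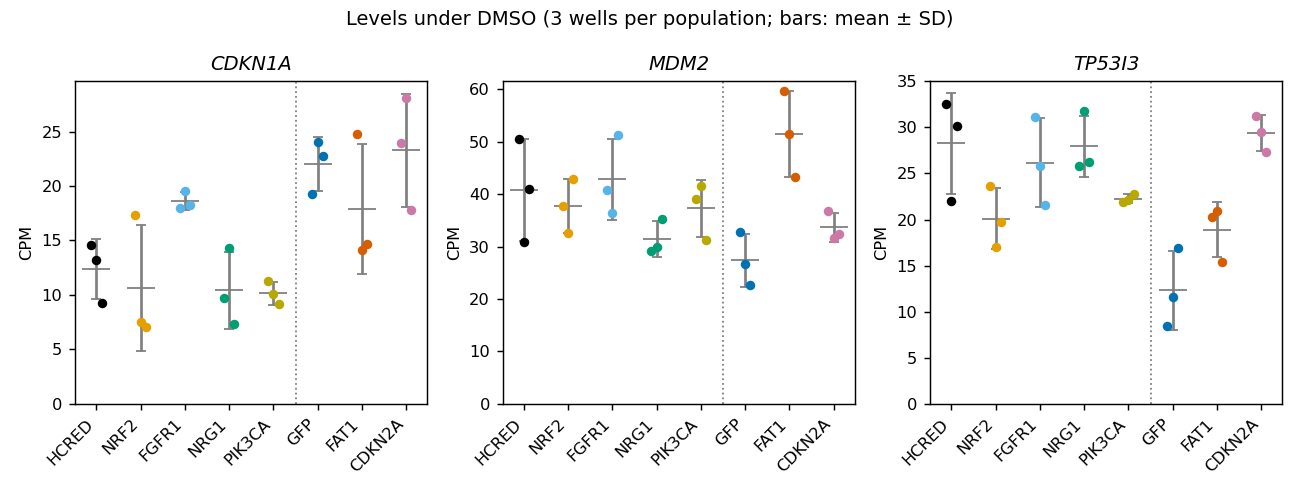
Levels of CDKN1A, MDM2 and TP53I3 under DMSO in the 8 populations, in CPM, with each of 3 wells as a point and the mean with SD as bars. The dotted line parts the overexpression populations from the CRISPR populations. GFP is lowest for TP53I3 (12.3 CPM) and MDM2 (27.3 CPM) and among the highest for CDKN1A (22 CPM), and FAT1 is highest for MDM2 (51.5 CPM).

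The genes whose group means were most like those of CDKN1A, MDM2 and GDF15 were looked up over the 25 groups of 3 wells, among 5654 genes with a mean count of at least 10, as a description. Nearest to CDKN1A were NCOA7 (Pearson r = 0.81), PIGC (0.808) and CLDND1 (0.8). Among the genes nearest to MDM2 were RAD50 (0.777) and its fellow target RRM2B (0.713). Nearest to GDF15 were TSPAN1 (0.752), IFI27 (0.661) and CERS2 (0.656). Between CDKN1A and MDM2 the correlation of the 25 group means was 0.05, and between CDKN1A and TP53I3 it was -0.35. The groups share plate rows, depth ranges and control constructs, and the values are given without a test.

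Further targets of p53 were counted in a list of 40 genes, of which 38 were tested against DMSO. Under CSC 1 was higher, FAS (0.28, SE 0.08, adjusted p = 0.0184), the death receptor, and 1 was lower, TP53TG1 (-0.35, SE 0.06, adjusted p = 2.62e-05), a non-coding RNA induced by p53. These 2 of 38 were close to the 5.81% of all genes called. Under BaP 5 were higher and 0 lower, where 5.04% of all genes were called higher and 4.12% lower. They were ABHD4 (0.47, adjusted p = 1.33e-05), the DNA damage binding protein DDB2 (0.45, adjusted p = 0.0233), EPHA2 (1.06, adjusted p = 0.0309), TRIAP1 (0.19, adjusted p = 0.00906) and RPS27L (0.09, adjusted p = 0.0227). Under NNK TRIAP1, an inhibitor of apoptosis, was higher (0.25, adjusted p = 0.00842), and PERP (-0.20, adjusted p = 0.0159) and PMAIP1, which encodes NOXA (-0.38, adjusted p = 0.0313), were lower, 3 of 38 where 7.22% of all genes were called. The medians of the 38 log2 fold changes were 0.002, 0.086 and 0.011 under CSC, BaP and NNK. The counts called varied between alternatives, from 1 to 6 under CSC, 1 to 6 under BaP and 0 to 5 under NNK.

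In a list of p53 and its regulators 13 genes were tested, and 3 values lay above 0 and 10 below under CSC (median -0.099). Under BaP 1 lay above and 12 below (median -0.158), and under NNK 2 and 11 (median -0.177). HIPK2, a kinase that phosphorylates p53, was higher under CSC, at 10.5 CPM against 6.91 CPM (0.61, SE 0.16, limma adjusted p = 0.01). It was the 1 gene of the 13 called higher, against 2.95% of all genes.

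Cell cycle genes that p53 is known to lower through p21 and the DREAM complex were next counted. Under CSC 8 of 12 were called lower and 0 higher, against 2.86% of all genes called lower. Under BaP the counts were 8 and 0, against 4.12% lower, and under NNK 3 and 0, against 4.15% lower, with 2 of the 12 values above 0. TOP2A, the topoisomerase of dividing cells, fell most clearly, from 370 to 305 CPM under CSC (-0.30, SE 0.04, limma adjusted p = 1.14e-08), from 372 to 279 CPM under BaP (-0.39, SE 0.04, adjusted p = 4.87e-12) and from 365 to 293 CPM under NNK (-0.30, SE 0.05, adjusted p = 1.61e-06). CCNA2, which encodes cyclin A2, also fell under all 3, by -0.42 (adjusted p = 0.00223), -0.44 (0.000735) and -0.29 (0.0227). These comparisons shared most of their DMSO wells. BIRC5, CCNB1, KIF23 and AURKA were called lower under CSC and BaP. The median of the 12 genes was -0.16, -0.20 and -0.07 under CSC, BaP and NNK, and between 4 and 9 of them were called in the alternatives under CSC, 6 to 10 under BaP and 1 to 5 under NNK. The share that CDKN1A had in these values was not tested.

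**Figure D5:**
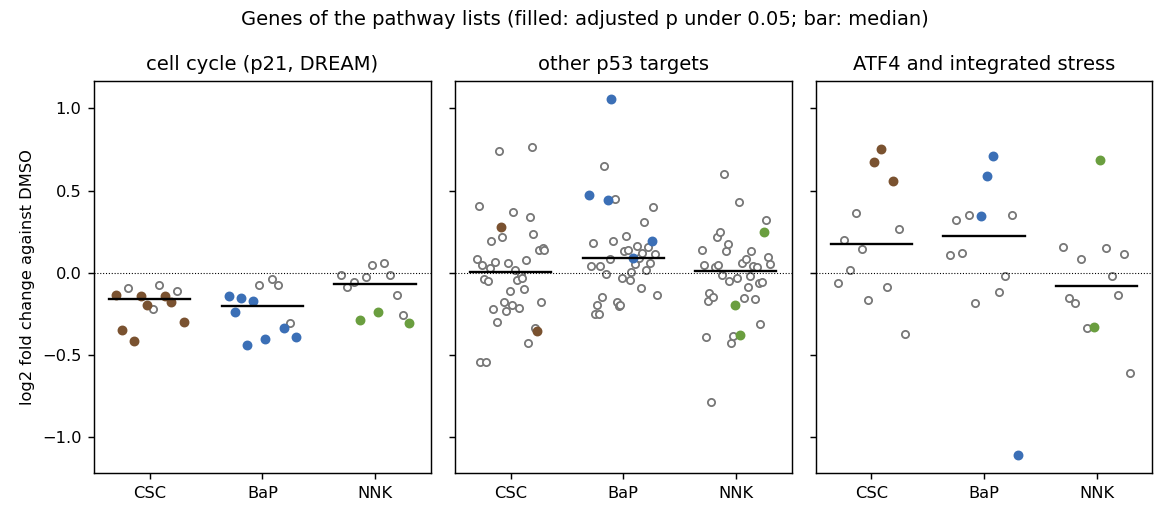
Log2 fold change against DMSO of each tested gene of 3 lists under CSC, BaP and NNK, with filled points where the limma adjusted p was under 0.05 and the list median as a black bar. The 12 cell cycle genes all lie below 0 under CSC and BaP (medians -0.16 and -0.20), and the other p53 targets lie on both sides of 0 (medians 0.002, 0.086 and 0.011).

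The same lists were counted between populations under DMSO. In NRF2 against HCRED 4 of 12 cell cycle genes were higher and 0 lower, where 4.91% of all genes were called. In PIK3CA against HCRED 3 of 12 were higher and 0 lower, where 5.40% were called, and in FGFR1 and NRG1 0 were called. In FAT1 against GFP 7 of 37 other p53 targets were higher and 0 lower, where 6.39% of all genes were called higher, with a median of 0.09 beside -0.01 over all genes. They held TP53TG1 (1.07, SE 0.13), TRIAP1 (0.53, SE 0.13), FAS (0.75, SE 0.19), and the pro-apoptotic PMAIP1 (0.79, SE 0.26) and BID (0.79, SE 0.27). BID was lower, though not called, when HCRED was the control (-0.26). CHEK2, the checkpoint kinase that phosphorylates p53, was higher (0.73, SE 0.20), and HIPK2 (-1.16, SE 0.38) and CDKN2A (-0.80, SE 0.20) were lower. In CDKN2A against GFP 3 of 36 targets were higher and 4 lower, near the 17.9% of all genes called. In that comparison 7 of 12 cell cycle genes were lower and 0 higher, TOP2A the most clearly (-1.02, SE 0.11). In GFP against HCRED, where 10.8% of all genes were called, 2 of 12 cell cycle genes were higher (TOP2A and CCNB2) and 4 lower (AURKA, BUB1, CCNA2 and CDK1), with a median of -0.21. Of 35 other p53 targets 2 were higher (RPS27L and ABHD4) and 2 lower (BID and TP53TG1), and CDKN2A was higher (0.76, SE 0.19).

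For scale, the AHR targets CYP1A1, CYP1B1 and TIPARP, 3 of 3 tested, were higher under every chemical. Over all genes, 2.95%, 5.04% and 3.07% were called higher under CSC, BaP and NNK, and 2.86%, 4.12% and 4.15% lower. CYP1A1, the hydroxylase that oxidises BaP, was raised on the log2 scale by 4.29 (SE 0.27) with CSC, 4.54 (SE 0.29) with BaP and 2.18 (SE 0.21) with NNK, where GDF15 with BaP, at 1.15, was the highest of the 7 genes tested. GDF15 is also induced by ATF4, and the 12 listed ATF4 and integrated stress genes were therefore counted beside it. Under BaP DDIT4 (0.59), DDIT3 (0.34) and PPP1R15A (0.71) were higher and VLDLR (-1.11) was lower. Under NNK DDIT4 was higher (0.69) and DDIT3 lower (-0.33), and under CSC SLC7A11 (0.56), DDIT4 (0.67) and PPP1R15A (0.75) were higher. ATF4 mRNA was not among the genes called against DMSO under any chemical, and the part of this pathway in the GDF15 values was not tested.

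Markers of other cells and of the basal state were read beside these results. The macrophage and lysosomal marker CD68 was called higher under CSC (0.88) and BaP (0.43). Of the 8 basal epithelial markers, 3 were called lower and 0 higher under CSC (KRT14, KRT5 and KRT8), 2 lower and 0 higher under BaP (KRT14 and KRT5), and 2 lower (KRT14 and KRT5) and 2 higher (CDH1 and KRT17) under NNK. Of all genes, 2.86% were called lower under CSC, 4.12% under BaP and 4.15% under NNK, and 3.07% higher under NNK. The summed level of the 9 other markers ran from 8.39 to 36 CPM under DMSO, 13.4 to 49.3 under CSC, 7.44 to 43.9 under BaP and 11.4 to 40.4 under NNK. Their part in the values of the p53 targets was not tested.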

How the data were processed

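Gene expression in 95 wells of AALE cells was measured by 3′DGE. The deposited values are raw UMI counts per gene, which the authors received already quantified, with reads aligned to RefSeq transcripts of hg19 by BWA aln (BWA 0.7.10 per the labels). The deposited counts are not normalized. The 13 wells with replicate numbers of 2 digits were left out of the main comparisons.

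Groups were fitted in R 4.3.3 with limma 3.58.1, using voom weights and TMM factors from edgeR 4.0.16, over genes with a mean count above 1. Chemicals were compared across populations with 3 wells on both sides, with population as a covariate. The comparisons against DMSO shared DMSO wells. Populations were compared in fits of 6 wells. Tests were two-sided with Benjamini-Hochberg adjustment over all genes tested and a threshold of 0.05. Differences between populations used a moderated F statistic. CPM divides a count by the total of its well.

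The p53 genes and the lists beside them were chosen with earlier results of these data known. All 9 genes were named in each chemical comparison, and of each list up to 6 called genes per chemical. Values of 2 genes that this rule would name are not reported here. Alternatives were edgeR's quasi-likelihood test, DESeq2 1.42.0, other scaling and filters, a replicate block, all wells, a single fit, and leaving out replicates, populations or wells. Scripts were tested on simulated counts in which only well counted genes were changed. Changes of sparsely counted genes such as GDF15 were not covered by that test. Totals of 692446 to 1895735 UMIs leave genes under 2 CPM with few molecules per well. Gene positions are from GENCODE on GRCh37, and upstream sequences from RefSeq on GRCh38.p14.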

Additional observations from a re-analysis of the deposited data

Results flagged for a closer look

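The 13 wells with 2-digit replicate numbers, which the comparisons did not use, were read against the DMSO wells of their own population for the genes called under their chemical. CDKN1A lay above every DMSO well in the 3 such wells of CDKN2A under CSC (29.6 to 34.3 CPM against 17.8 to 28.1) and in the 2 of NRG1 under CSC (17.8 to 18 CPM against 7.31 to 14.3). TP53I3 did so in the CDKN2A wells under CSC (33.2 to 47.8 CPM against 27.3 to 31.2), and GDF15 in the 2 CDKN2A wells under NNK (2.9 to 5.53 CPM against 1.44 to 2.23). Other wells of this kind did not. CDKN1A was at 10.2 to 11.7 CPM in FGFR1 under BaP, below the DMSO wells at 18 to 19.6 CPM, and at 12 to 13.1 CPM in HCRED under BaP, within the DMSO wells at 9.29 to 14.5 CPM. The labels do not say whether such wells are separate cultures.

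SESN1 under CSC had every treated well above every DMSO well in 1 population, FAT1, and every treated well below them in 1 other, PIK3CA. The interaction test across the 5 populations did not pass the threshold (limma adjusted p = 0.889), and SESN1 was counted at only a few UMIs per well.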

How the results depend on the processing

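Members' values were recomputed 1131 times under the alternatives, of which 28 passed the threshold newly and 26 no longer did. The sign changed in 85, in 1 of them with a value past the threshold on either side. The number of the 9 genes called under CSC was 2, and became 3 with all wells, where MDM2 was added. It became 1 in the single fit over all groups and on leaving out FAT1, HCRED, NRF2 or PIK3CA, and 0 to 2 without a replicate number. Under BaP the number called was 2. It became 3 in edgeR, with median-ratio size factors, with all wells and with 2-digit wells summed, where TP53I3 was added. It became 1 in DESeq2 and on leaving out FAT1, GFP or PIK3CA, 0 on leaving out NRF2, and 0 to 2 without a replicate number. Under NNK it was 1 and became 2 with median-ratio size factors, with no filter and with library totals, 3 with all wells, with 2-digit wells summed and on leaving out NRG1, 0 on leaving out FAT1 or NRF2, and 0 to 3 without a replicate number or a single well, with 3 where NRG1 NNK replicate 2 was left out. With all shared chemicals it rose from 0 to 1 in NRF2 against HCRED and from 1 to 3 in FAT1 against GFP, where TP53I3 (0.81) and FDXR (1.17) joined MDM2. Without single wells it ran from 1 to 2 in FAT1 against GFP and from 1 to 3 in GFP against HCRED, where DESeq2 also gave 1. With HCRED wells as the control, chosen after seeing the data, CDKN1A in CDKN2A turned from -0.05 to 0.83. In the same fits list genes reversed: in FAT1, BID to -0.26, TOP2A to 0.16, ASNS to 0.20 and SLC7A11 to 0.18, and in CDKN2A, BID to -0.15, ASNS to 0.0136 and PSAT1 to 0.0263. The cause was not tested.

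Wells that share a replicate number in the labels showed little pairing. Over 24 pairs of groups the correlations of their deviations ran from -0.14 to 0.14 (mean 0.02), and 0 pairs of groups had every correlation over 0.1. Of 72 wells, each set against 3 wells of the other group, 31 correlated best with their own number. All 3 did so in FAT1 under BaP, NRF2 under NNK and NRF2 against HCRED. In GFP and NRG1 under BaP, HCRED and PIK3CA under NNK, and NRG1 and PIK3CA against HCRED, 0 did so. A replicate block left the number of called members as it was in 15 of 16 comparisons. Under BaP the block raised it from 2 to 3, by TP53I3 (0.29, adjusted p = 0.0447), and 1065 genes were called in place of 1036.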

Other observations

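FDXR, which no comparison against DMSO called, lay above all DMSO wells of its population in the 2-digit wells of HCRED under BaP (2.58 to 4.03 CPM against 0.856 to 2.21) and FGFR1 under BaP (2.05 to 2.13 CPM against 0 to 1.66). It did so only barely in FGFR1 under CSC (1.66 to 2.72 CPM against 0 to 1.66). It did not in CDKN2A under CSC or NNK, nor in NRG1 under CSC (0 to 0.71 CPM against 0.609 to 1.3). Such levels rest on few UMIs per well. TP53I3 lay above all DMSO wells of its population in the 2-digit wells of FGFR1 under BaP (31.7 to 34.1 CPM against 21.5 to 31.2). Over the 25 groups of 3 wells, the means of TP53I3 and GDF15 had a Pearson correlation of 0.464, and MDM2 and GDF15 one of -0.09, given as a description.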
